A study of Rattus norvegicus with 20 samples.

Results

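The miRNA profile of the rat soleus was compared between surgical decompression of an entrapped sciatic nerve and lasting denervation, on 6 of the 20 arrays of the series. The arrays were chosen by their labels alone. The denervation group (3 arrays) held soleus muscle collected 6 months after the right sciatic nerve was cut, with a segment removed and the proximal stump ligated and moved away so that the muscle could not be reinnervated. The decompression group (3 arrays) held soleus muscle of rats that carried a non-constrictive silastic tube around the nerve for 6 months, and were then kept for 3 months after the tube had been taken off. All rats were adult male Sprague-Dawley rats and had undergone sciatic surgery. The groups differ in the kind of injury, in the removal of the tube and in the time since the first operation, so these cannot be told apart. No sham array entered the comparison, and a difference here says nothing about which group lies nearer to uninjured muscle. Per the methods, tissue of 3 rats per group went onto the arrays, which is also the number of arrays in each group, but no source says which array holds which rat, so the p-values measure the spread between arrays.

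MicroRNAs are short RNAs cut as a duplex from a hairpin precursor. The strand that is loaded into the silencing complex pairs with mRNAs through its seed, bases 2 to 8 from the 5′ end, and lowers their translation or stability, whereas the passenger strand (marked * in the array names) is mostly degraded. Soleus is a slow postural muscle of the calf, rich in muscle miRNAs of the miR-1/miR-206 and miR-133 families. Loss of its nerve brings on atrophy and fibrosis, in which miR-29 (a repressor of collagen mRNAs) and miR-206 (raised at denervated neuromuscular junctions) have been studied.

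Each array gave a summed, background-subtracted intensity for each of 348 miRNAs, with a detection call. Every array was scaled to the 75th percentile of the 114 miRNAs detected on all 6 arrays, and scaled signals are given below in these units. Before scaling this percentile was 1413, 2502 and 384 on denervation arrays 1, 2 and 3, against 1037, 933 and 1062 on the decompression arrays. Denervation arrays 1, 2 and 3 detected 179, 194 and 137 miRNAs, and the decompression arrays 145, 138 and 136. Denervation array 3 was therefore the dimmest, and resembled the decompression arrays in its number of detected miRNAs. Denervation arrays 1 and 2 also came in a file layout that differed from that of denervation array 3 and the decompression arrays, and several control features with a strong signal on these arrays were near or below 0 on the other 4. Of 45 control features, 14 (31.1%) did not overlap between the groups, and 11 control signals above 20 were equal between arrays, which no miRNA signal above 20 was. The background of the control features was also shifted in 1 direction. Of the 8 negative-control and dark-corner features, 7 read higher on every decompression array than on every denervation array and 1 overlapped, with the negative control at −54.8, −49.5 and −15.3 after denervation and at 29.5, 15.5 and 33.7 after decompression, before scaling. Weak miRNA signals lie at this level. Several undetected miRNAs read lower on every decompression array, opposite to these controls and on the same side as miR-760-5p below. The scaled signal of miR-125b-3p was −0.72, −1.63 and −0.29 after denervation and lower, at −5.15, −13.2 and −6.07, after decompression. miR-296 read −2.07, −1.34 and −2.34 against −6.89, −11.1 and −7.43, and miR-218* read −1.55, −2.00 and −2.85 against −6.28, −14.6 and −7.37. Others overlapped, such as miR-153 at −2.64, −1.57 and −12.8 against −4.22, −14.1 and −6.86. The part of background shifts in the weak signals was not tested. Pearson's correlation of log2 signals over the tested miRNAs was 0.870 to 0.954 between the groups, 0.937 to 0.985 within decompression and 0.883 to 0.982 within denervation. The range within denervation overlapped that between the groups, and the part of these array differences in the results was not tested.

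The sequences that the results turn on are shown first, from RefSeq (rat assembly GRCr8), with the seed in capitals. The miRNAs that passed the test of the fitted model, miR-760-5p, miR-664 and miR-139-3p, have unrelated seeds:
miR-760-5p: cCCCUCAGgccaccagagcccg
miR-664: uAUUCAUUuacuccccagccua
miR-139-3p: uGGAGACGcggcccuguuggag
miR-760-5p lies at chr2:213077316-213077337 on the minus strand. miR-664 has 2 loci, chr13:99324687-99324708 within the span of Rab3gap2 and chr18:48150403-48150424, both on the plus strand. miR-139-3p lies at chr1:165290901-165290922 on the plus strand, within the span of Pde2a. The other miRNAs detected on the 3 denervation arrays and on no decompression array were 2 minor strands and a member of an imprinted cluster:
miR-125a-3p: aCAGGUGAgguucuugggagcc
miR-338*: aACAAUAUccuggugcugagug
miR-539: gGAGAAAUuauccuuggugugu
The miR-29, miR-27 and miR-125 members below share a seed within each family, so that the members of a family are expected to recognise the same kind of mRNA site. Members differ at few other bases, and a probe may pick up part of its neighbour's signal:
miR-29a: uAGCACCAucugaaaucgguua
miR-29b: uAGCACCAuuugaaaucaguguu
miR-29c: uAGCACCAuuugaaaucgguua
miR-27a: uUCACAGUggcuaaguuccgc
miR-27b: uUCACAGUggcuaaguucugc
miR-125a-5p: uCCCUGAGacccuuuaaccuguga
miR-125b-5p: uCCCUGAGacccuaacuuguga
The muscle miRNAs form pairs with common seeds, miR-1 with miR-206 and miR-133a with miR-133b, which differs from miR-133a only in its last base:
miR-1: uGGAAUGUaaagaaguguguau
miR-206: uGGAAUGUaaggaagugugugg
miR-133a: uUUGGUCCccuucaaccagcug
miR-133b: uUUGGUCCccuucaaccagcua

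Among the 151 miRNAs tested, 3 were lower after decompression than after denervation at a limma adjusted p under 0.05 (1.99% of those tested) and 0 were higher (0%). Without denervation array 2, decompression array 1 or decompression array 3, 0 miRNAs passed, and 0 passed with quantile scaling or rank-consistent loess. With the percentile taken over all 348 miRNAs, 4 were lower and 7 higher. Of the 3 miRNAs, miR-760-5p and miR-139-3p entered the test through their denervation arrays alone. Both were set to the floor of 2.71 on all 3 decompression arrays, so that these arrays showed no spread and the p-values of both support nothing beyond the detection calls. At an unadjusted p under 0.05 with all 6 arrays the counts were 27 lower (17.9%) and 8 higher (5.3%). On 35 miRNAs (23.2%) every decompression array lay below every denervation array, and on 13 (8.61%) every decompression array lay above. In either direction this came to 48 miRNAs (31.8%), near the 31.1% of control features without overlap, which were read before scaling. A lack of overlap was thus hardly more frequent among miRNAs than among controls. Without denervation array 3 the counts below and above were 57 and 29 of the 151. Fewer arrays part more often by chance alone, so these counts cannot be set against 35 and 13. The median log2 difference over the tested miRNAs was −0.21, with 93 differences negative and 58 positive. This balance moved with the scaling. The median was 0.28, with 16 miRNAs below and 46 above, when the percentile was taken over all 348 miRNAs, and 0.12 with quantile scaling. Of the 35 miRNAs below, 7 had no overlap under all 5 other scalings either. Of these, 5 were detected on 0 decompression arrays, 4 of them at the floor on all 3, where a scaling can move little, so this count is no measure of stability. The other 2, miR-487b and miR-466b, were detected on all 6 arrays. Differences are therefore best read against the median of −0.21.

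**Figure D1:**
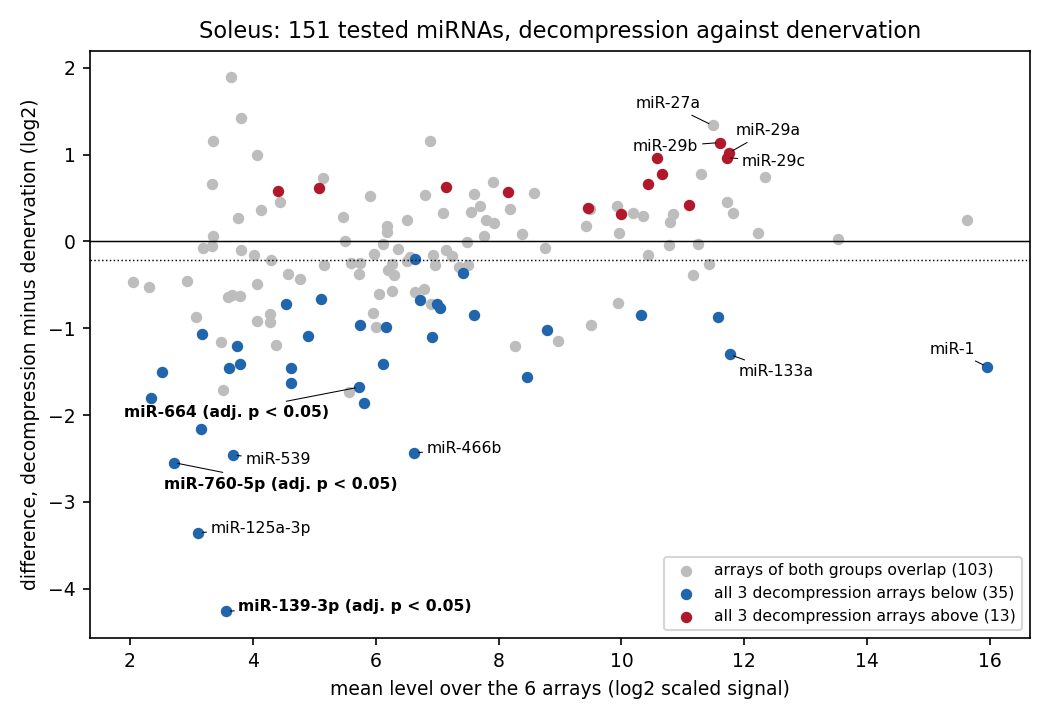
Difference in log2 scaled signal (decompression minus denervation, vertical axis) against the mean log2 scaled signal over the 6 arrays (horizontal axis) for the 151 tested miRNAs. Blue points are the 35 miRNAs with all decompression arrays below all denervation arrays, red points the 13 with all above, grey points the 103 that overlap, and the dotted line is the median of −0.21. The lower differences reach −4.26 and gather at low levels, while miR-29a, miR-29b and miR-29c stand among the bright miRNAs at 0.97 to 1.14.

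miR-664 was the only miRNA past the threshold that was detected on all 6 arrays. Its scaled signal was 96.5, 103 and 86.9 on the denervation arrays and 26.9, 39.5 and 24.8 on the decompression arrays. With the main scaling the groups lay far apart, and the denervation arrays, which differed most in brightness before scaling, differed little. This separation depends on the scaling. For miR-664 every decompression array lay below every denervation array under 4 of the 5 other scalings, but not under all. Its mean was 3.20-fold lower after decompression, a log2 difference of −1.68 (SE 0.263, adjusted p = 0.0351). Leaving out each array in turn, its adjusted p was 0.0277 to 0.183.

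miR-760-5p read 10.4, 22.7 and 16.8 after denervation, and was detected on all 3 arrays. On the decompression arrays it read −3.16, −1.76 and −3.24 after background subtraction, with 0 of 3 arrays calling it detected. Its level was nominally at least 5.62-fold lower after decompression (adjusted p = 0.0289). This bound takes, on each decompression array, the largest of the floor, the lowest detected signal and the miRNA's own signal. It is no strict limit, since an undetected miRNA can read higher, as miR-154 did at 18.9 on decompression array 2. The same holds for every fold given below as at least a value. miR-760-5p passed the filter through the denervation arrays alone, and its decompression values, all at the floor, had an SD of 0.

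miR-139-3p, the 3′ strand of a hairpin in the phosphodiesterase gene Pde2a, read 23.8, 37.2 and 158 after denervation and 2.30, −4.41 and 2.34 after decompression, where 0 arrays detected it. It too passed the filter through the denervation arrays alone, with an SD of 0 at the floor after decompression. The highest denervation value, on array 3, is uncertain, since the authors' processed table gives a level that comes to 20.3 on the same scale, which also lies above the decompression arrays. The bound depends on this array. The level was at least 9.31-fold lower with the processed value, at least 10.6-fold lower without denervation array 3 and at least 18.4-fold lower with the scanner value (adjusted p = 0.0351). The opposite strand, miR-139-5p, read 36.6, 18.7 and 13.0 after denervation and 5.69, 1.49 and 16.4 after decompression, so that the groups overlapped (log2 difference −1.71, adjusted p = 0.228).

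miR-125a-3p, miR-338* and miR-539 showed the same pattern of detection without passing the test. miR-125a-3p read 10.1, 72.9 and 28.9 after denervation and 2.63, 0.301 and 0.905 after decompression (at least 9.85-fold, adjusted p = 0.0667). miR-338*, the minor strand of a hairpin in Aatk, read 6.79, 8.37 and 14.8 against −2.53, −6.33 and −4.75 (at least 3.36-fold, adjusted p = 0.0550). miR-539, of the imprinted Dlk1-Dio3 locus, read 19.0, 18.8 and 76.1 against 6.56, 9.14 and 1.21 (at least 5.50-fold, adjusted p = 0.0932). The bound of miR-125a-3p was 16.3-fold without denervation array 1 and 6.08-fold without denervation array 2, and that of miR-539 was 3.46-fold without denervation array 3. All 3 passed the filter through the denervation arrays alone. These miRNAs sit near the limit of detection, where the decompression arrays give only a nominal bound. No miRNA was detected on all 3 decompression arrays and on 0 denervation arrays.

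**Figure D2:**
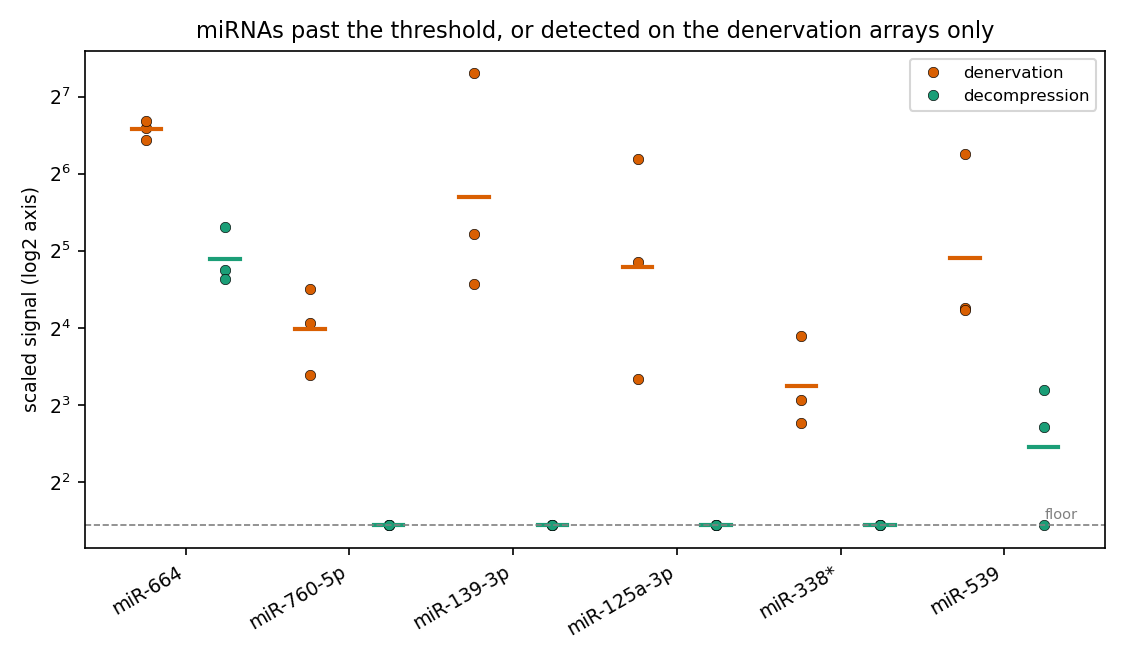
Scaled signal on each array (log2 axis) of miR-664, miR-760-5p, miR-139-3p, miR-125a-3p, miR-338* and miR-539. Points are arrays, bars are geometric means, and signals under the floor of 2.71 (dashed line) are drawn at it. For each miRNA the 3 denervation arrays lie above the 3 decompression arrays, and those of miR-760-5p, miR-139-3p, miR-125a-3p and miR-338* lie at the floor after decompression.

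The miR-29 family, whose known targets include collagen and other matrix mRNAs, lay above every denervation array for each of its 3 guide strands. miR-29a read 2106, 2686 and 2501 after denervation and 4569, 5682 and 4578 after decompression. miR-29b read 1372, 2329 and 2876 against 4012, 6275 and 3908. miR-29c read 2685, 2531 and 2028 against 5036, 3986 and 5133. The log2 differences were 1.02, 1.14 and 0.97, and none passed the threshold (adjusted p = 0.0667, 0.130 and 0.0721). The gap between the groups exceeded the range within either for miR-29a and miR-29c. For miR-29b the gap, from 2876 to 3908, was smaller than the range within either group. With an intensity trend in the model, miR-29a (adjusted p = 0.0403) and miR-29c were past it. The processed table left unscaled gave −0.20 for miR-29a, where the median over the tested miRNAs was −1.23. The 3 guide strands share the seed AGCACCA and are no separate evidence, since each probe may read its relatives.

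The passenger strand miR-29a* lay on the other side, below every denervation array. It read 23.8, 21.3 and 22.5 after denervation and 7.45, 13.4 and 6.03 after decompression (log2 difference −1.42, adjusted p = 0.0693). Both strands come from the hairpin at chr4:60617955-60618042 on the minus strand, shown with miR-29a* and then miR-29a in capitals:
Mir29a hairpin: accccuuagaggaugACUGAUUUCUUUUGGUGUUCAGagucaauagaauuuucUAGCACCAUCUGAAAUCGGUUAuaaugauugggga
The ratio of the strands within an array does not depend on a scaling by a single factor per array, but quantile scaling and loess change it. The group differences of miR-29a and miR-29a* were 0.53 and −0.72 with quantile scaling and 0.77 and −0.56 with loess, a smaller shift than with the main scaling. The log2 ratio of miR-29a to miR-29a* stood at 6.75 ± 0.26 in the denervation group and at 9.19 ± 0.43 in the decompression group (mean ± SD of 3 arrays). The levels of different probes are not comparable. The shift of 2.44 in the ratio is comparable between the groups only if each probe responds alike on all arrays, which was not tested. miR-29a* is a weak signal, with a median feature error of 24.8%. For miR-29c and miR-29c* the ratio was 3.91 ± 0.34 and 4.32 ± 0.09, a shift of 0.41. Here the passenger strand was not lower, at 234, 155 and 113 after denervation and 251, 188 and 273 after decompression. miR-21, the fibrosis miRNA of the same list, read 1993, 1890 and 1471 against 1633, 1467 and 2136, with overlap (−0.04, adjusted p = 0.937). The entrapment arrays, from rats with the tube still in place at 6 months, gave 4591, 3768 and 4795 for miR-29a and 6.46, 5.36 and 7.84 for miR-29a*, values on the decompression side of the denervation arrays.

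**Figure D3:**
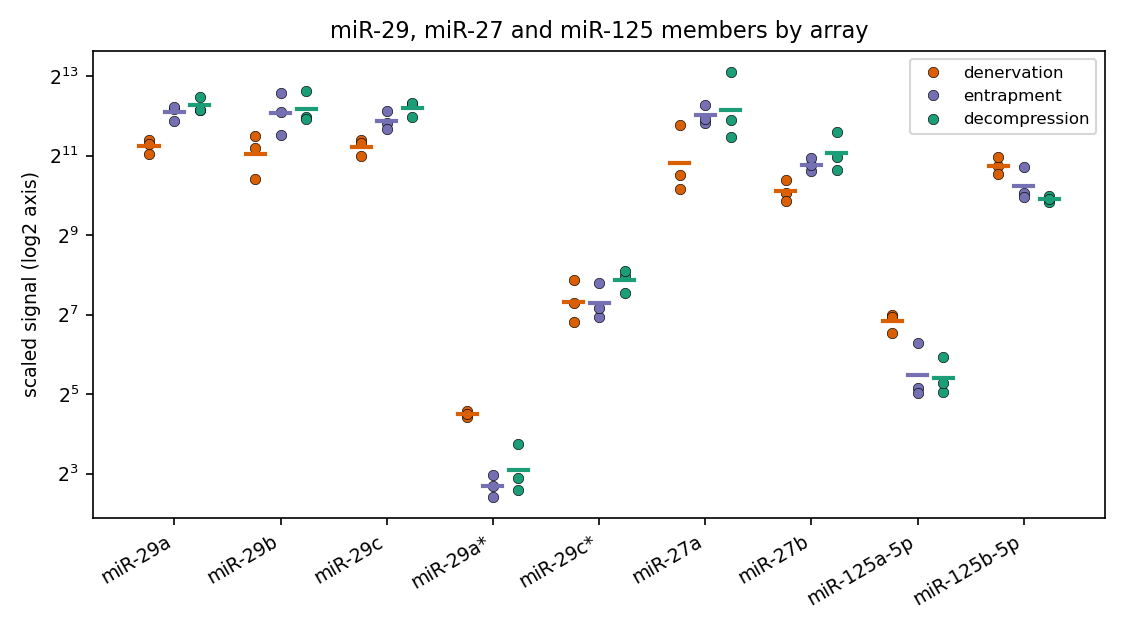
Scaled signal on each array (log2 axis) of miR-29, miR-27 and miR-125 members in the denervation, entrapment and decompression groups. Points are arrays and bars are geometric means. The decompression arrays of miR-29a, miR-29b, miR-29c and miR-27b lie above the denervation arrays, and those of miR-29a*, miR-125a-5p and miR-125b-5p below them. The entrapment arrays were not part of the test.

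The list of miRNAs of muscle differentiation and atrophy had 14 tested members, 0 past the threshold. Of these, 1 (miR-181b, 7.14%) lay below every denervation array, against 23.2% of all tested miRNAs, and 2 (miR-23b and miR-27b, 14.3%) lay above, against 8.61%. miR-181b overlapped under each of the 5 other scalings. Their median difference was 0.21, against −0.21 for all tested miRNAs. miR-27b, a repressor of Pax3 and myostatin mRNAs, read 1065, 930 and 1333 after denervation and 1998, 3081 and 1592 after decompression (0.96, adjusted p = 0.141). miR-27a read 1147, 1463 and 3496 against 3818, 8809 and 2814. Denervation array 3 lay within the decompression range, and the difference of 1.34 had an adjusted p of 0.237. miR-24, made from the same clusters, read 1573, 1601 and 2797 against 2880, 5457 and 2243 (0.77, adjusted p = 0.342). Decompression array 2 was the highest of the 6 for these 3 miRNAs. miR-27b and miR-23b lie 221 bases apart on chromosome 17, and miR-27a and miR-23a lie 143 bases apart on chromosome 19. In both clusters the log2 ratio of miR-27 to miR-23 was higher on every decompression array, at −0.25 ± 0.14 against −0.80 ± 0.20 for miR-27b to miR-23b, and at 0.18 ± 0.15 against −0.83 ± 0.59 for miR-27a to miR-23a (SD, n = 3).

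The muscle-enriched miRNAs had 6 tested members and 1 undetected on all 6 arrays, the cardiac miR-208. miR-1, miR-133a, miR-133b and miR-206 were detected on all 6 arrays. None passed the threshold, 2 (33.3%, against 23.2% of all tested miRNAs) lay below every denervation array, and their median difference was −0.53. miR-1 read 73716, 49466 and 312858 after denervation and 41144, 29249 and 47048 after decompression, and miR-133a read 3715, 2692 and 16180 against 2471, 1750 and 2497. Denervation array 3 was several-fold above the other denervation arrays for both. The differences were −1.44 (adjusted p = 0.285) and −1.30 (adjusted p = 0.336). In the authors' processed table these values are lower on denervation array 3, at 144236 for miR-1 and 5753 for miR-133a on the same scale, and lower for miR-1 on decompression arrays 1 and 3, at 23263 and 10680. The group difference of miR-1 thus depends on which file is read, although its direction does not. miR-1 and miR-133a are cut from a common transcript within the span of Mib1, 2431 bases apart, and their log2 ratio was 4.26 ± 0.06 after denervation and 4.12 ± 0.10 after decompression, with overlap.

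miR-133b read 62200, 44905 and 35426 after denervation and 57624, 49823 and 57695 after decompression (0.25, adjusted p = 0.578). miR-206, its cluster partner and the miRNA linked to reinnervation of muscle, read 2680, 2315 and 10301 against 4993, 22976 and 2633 (0.75, adjusted p = 0.611). Each group had 1 array far above the others, so no group difference could be resolved, and without decompression array 2 the difference was −0.14. miR-499, encoded in the slow myosin gene Myh7b, read 31.7, 58.5 and 346 against 23.9, 219 and 3.35 (−1.73, adjusted p = 0.528). Its direction turned with the source, since the processed table holds values about 10 times lower on denervation array 3 and 10 times higher on the decompression arrays, which gave 2.66 (adjusted p = 0.317). miR-1* was detected on 1 denervation array and 2 decompression arrays, at 2.06, 1.42 and 43.4 against 12.3, 27.0 and 10.6 (1.15, adjusted p = 0.528).

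The miR-99/100 and miR-125 families had 8 tested members, 0 past the threshold, with 5 below every denervation array (62.5%, against 23.2% of all tested miRNAs) and 1 above (12.5%, against 8.61%). Of the 5 below, miR-100 lay below under 0 and miR-99b under 1 of the 5 other scalings. Their median difference was −0.46. miR-125b-5p, which is known to repress Igf2 in muscle, read 1720, 1990 and 1486 after denervation and 1009, 905 and 961 after decompression (−0.85, adjusted p = 0.0848). miR-125a-5p, with the same seed, read 93.5, 128 and 123 against 33.1, 61.0 and 38.6 (−1.41, adjusted p = 0.0667). With the main scaling the 2 groups did not overlap for either. Under the 5 other scalings miR-125b-5p lay below every denervation array in 3 and miR-125a-5p in 4. miR-125a, let-7e and miR-99b form a cluster on chromosome 1 within the span of Spaca6, 424 bases from miR-125a-5p to let-7e. The gap between the groups differed among the 3. miR-99b read 22.1, 31.1 and 38.5 against 16.9, 19.6 and 18.0, and let-7e read 155, 180 and 216 against 148, 140 and 158. The log2 ratio of miR-125a-5p to let-7e was −0.68 ± 0.17 after denervation and −1.80 ± 0.52 after decompression, and that of miR-125a-5p to miR-125a-3p, from opposite arms of the hairpin, was 2.04 ± 1.20 and 3.98 ± 0.46. The latter ratio rests on the floor on the decompression arrays.

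With the main scaling the miRNAs of vessel wall cells differed in sign within their own loci. In both pairs the miRNA with the stronger signal had the positive difference, and the part of signal level was not tested. Under the 5 other scalings miR-143 lay above every denervation array in 2. miR-145 lay below in 2 and miR-126* in 4. Of 4 tested members, 2 lay below (50%, against 23.2% of all tested miRNAs), 1 lay above (25%, against 8.61%) and 0 passed the threshold, with a median difference of −0.33. miR-143 and miR-145, known from smooth muscle, lie 1317 bases apart on chromosome 18 in the noncoding gene Carmn. miR-143 read 1013, 1164 and 1598 after denervation and 2173, 2548 and 1718 after decompression (0.78, adjusted p = 0.143). miR-145 read 55.4, 70.8 and 107 against 41.5, 47.9 and 28.5 (−0.96, adjusted p = 0.143). Their log2 ratio was 4.19, 4.04 and 3.91 on the denervation arrays and 5.71, 5.73 and 5.92 on the decompression arrays, a shift of 1.74 with a spread of at most 0.14 within a group. The group differences of miR-143 and miR-145 were 0.57 and −0.58 with quantile scaling and 0.59 and −0.47 with loess, a smaller shift. The endothelial miR-126 read 1072, 1061 and 1451 against 1406, 1732 and 1249, with overlap (0.29, adjusted p = 0.516), while its other strand miR-126* read 106, 87.8 and 114 against 53.7, 57.4 and 43.9 (−0.99, adjusted p = 0.0693). Their log2 ratio was 3.54 ± 0.17 and 4.82 ± 0.10, a shift of 1.28. Here too the shift was smaller with quantile scaling (group differences 0.18 and −0.53) and with loess (0.12 and −0.58). The summed level of this list ranged from 2247 to 3269 after denervation and from 3040 to 4385 after decompression.

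In all, 31 ratios within an array were computed, 19 of opposite strands and 12 of neighbours in a cluster. All use the main scaling, and quantile scaling and loess can change such ratios. Among the strand ratios 6 were higher and 1 lower on every decompression array, and among the cluster ratios 5 were higher and 2 lower. Of these 7 strand ratios, 3 are set by the floor, those of miR-125a-5p to miR-125a-3p and miR-338 to miR-338* through the decompression arrays and the lower one, miR-1 to miR-1*, through denervation arrays 1 and 2. The floor entered 0 of the 7 cluster ratios. With 3 arrays against 3 the smallest p of an exact two-sided permutation test is 0.1, which each of these 14 reached, with a Benjamini-Hochberg adjusted value of 0.221. The other 17 ratios overlapped between the groups. miR-22 to miR-22* was 7.39 ± 0.04 after denervation and 7.31 ± 0.16 after decompression, and miR-30a to miR-30a* was 3.18 ± 0.33 and 3.08 ± 0.04. In the cluster within Mcm7 on chromosome 12, miR-106b to miR-93 was 1.86 ± 0.39 and 2.91 ± 0.38, with miR-106b at 131, 105 and 108 against 181, 155 and 195 (0.63, adjusted p = 0.143).

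**Figure D4:**
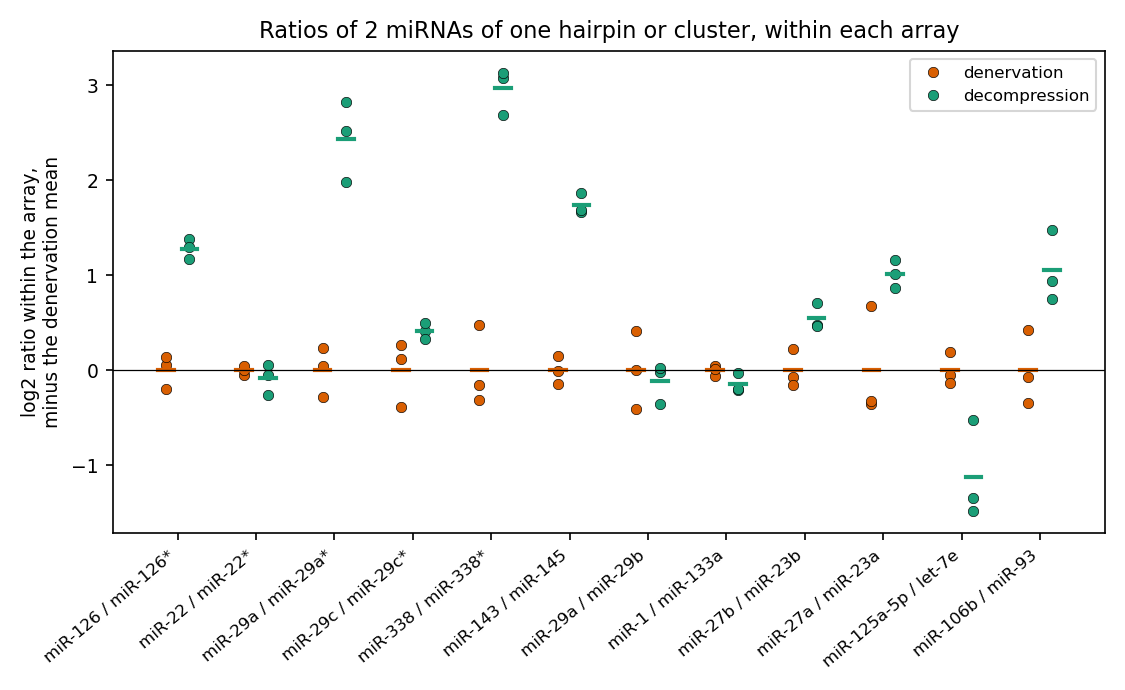
Log2 ratio of miRNAs from opposite strands of a hairpin or from a common cluster, on each array, with the mean of the denervation arrays subtracted (vertical axis). Points are arrays and bars are means. With the main scaling, the ratios of miR-143 to miR-145, miR-126 to miR-126* and miR-29a to miR-29a* are shifted by 1.74, 1.28 and 2.44 after decompression. Those of miR-22 to miR-22* and miR-1 to miR-133a overlap. miR-338* lies at the floor after decompression.

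miRNAs of blood cells were compared because they mark other cells that a muscle sample can hold. In bulk tissue, fewer cells of a type and less RNA per cell cannot be told apart. All 6 leukocyte miRNAs had negative differences, as did 93 of the 151 tested (61.6%). Of the 6, 3 lay below every denervation array (50%, against 23.2% of all tested) and 0 passed the threshold, with a median of −0.68 against −0.21 for all tested miRNAs. miR-142-3p, miR-142-5p and miR-150 did not keep their sign under every other scaling. Their summed level ranged from 663 to 1046 after denervation and from 438 to 586 after decompression. miR-223, of myeloid cells, read 158, 254 and 137 against 80.1, 89.6 and 76.9 (−1.11, adjusted p = 0.0848). miR-146a, induced by inflammatory signalling, read 156, 211 and 137 against 116, 97.2 and 89.0 (−0.72, adjusted p = 0.143). miR-142-3p, expressed throughout the blood lineage, read 159, 301 and 164 against 197, 209 and 109, so that the groups overlapped (−0.27, adjusted p = 0.656). miR-146b read 32.2, 51.3 and 10.4 against 13.4, 14.8 and 15.2 (−0.84, adjusted p = 0.413). Against denervation array 3 alone its difference was 0.47.

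The red blood cell miRNAs varied between arrays of both groups. miR-451 read 913, 2127 and 214 after denervation and 1074, 177 and 201 after decompression (−1.15, adjusted p = 0.528). miR-144 from the same locus read 100, 212 and 25.9 against 187, 28.4 and 29.2 (−0.61, adjusted p = 0.695). The 3 highest arrays for both were denervation arrays 1 and 2 and decompression array 1. The part of blood in the other results was not tested.

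Of 17 miRNAs of neurons and glia, 4 were tested and 9 were undetected on all 6 arrays, among them the neuronal miR-124, miR-9, miR-132 and miR-138. miR-338, known from myelinating glia, read 45.6, 62.6 and 172 after denervation and 191, 198 and 146 after decompression. Its lower denervation arrays were 1 and 2, and the difference of 1.16 had an adjusted p of 0.237. With miR-338* not detected after decompression, the strands differed in direction, at a log2 ratio of 3.06 ± 0.42 against 6.03 ± 0.24, the latter set by the floor. miR-212 read 190, 278 and 333 against 160, 128 and 149 (−0.85, adjusted p = 0.141).

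The imprinted Dlk1-Dio3 locus on chromosome 6, which encodes a large group of miRNAs expressed from the maternal chromosome, had 47 members on the array. Of these, 27 were undetected on all 6 arrays and 10 were tested. All 10 differences were negative, against 61.6% of all tested miRNAs, 6 lay below every denervation array (60%, against 23.2%) and 0 passed the threshold, with a median of −1.14. Under the 5 other scalings 7 kept their sign each time, and miR-300-3p, miR-329 and miR-409-3p did not. Of the 6 below, miR-127, miR-136 and miR-434 lay below under 1 of these scalings and miR-494 under 3. miR-487b and miR-539 lay below under all 5. The summed level was 505 to 1271 after denervation and 293 to 371 after decompression. miR-494 read 263, 1046 and 820 against 204, 229 and 187 (−1.56, adjusted p = 0.143). miR-487b read 36.4, 27.2 and 81.8 against 15.97, 12.4 and 13.8 (−1.63, adjusted p = 0.0848). miR-434 read 53.9, 28.7 and 43.7 against 11.2, 24.9 and 11.6 (−1.46, adjusted p = 0.0932). Only a fraction of the members could be tested, and a member could enter through its denervation arrays alone, so the counts describe these 10 and not the locus.

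The miR-30 family had 11 tested members with 2 below (18.2%, against 23.2% of all tested) and 2 above (18.2%, against 8.61%), a median of −0.08 and 0 past the threshold. Members with a common seed had differences of opposite sign. miR-30c read 5738, 4024 and 2973 against 2525, 1877 and 2367 (−0.87, adjusted p = 0.143), whereas miR-30e, within the span of Nfyc, read 1150, 1037 and 1122 against 1869, 1724 and 1661 (0.67, adjusted p = 0.115). miR-30c has 2 loci with the same mature sequence, within Nfyc and on chromosome 9, and its signal may come from both. miR-30d read 1621, 1189 and 538 against 547, 416 and 623, with overlap through denervation array 3 (−0.96, adjusted p = 0.276). miR-30c-1* read 7.63, 6.42 and 18.6 against 3.02, 4.83 and 0.821 (−1.51, adjusted p = 0.124).

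Other families showed no member past the threshold, and their counts stand against the same 23.2% below and 8.61% above. The let-7 family had 10 tested members, 0 below and 1 (10%) above, with a median of 0.04, and the summed level was 10014 to 11200 after denervation and 10525 to 10856 after decompression. The 8 members with the seed GAGGUAG differed by −0.29 to 0.33. The miR-15/16 family had 5 tested members, all overlapping, from −0.58 for miR-15b to 0.41 for miR-195 and miR-322. The miR-17-92 clusters and paralogs had 7 tested members, with miR-106b above (14.3%) and 0 below. The miR-10 and miR-196 list had 5 tested members, all overlapping, from −0.83 for miR-196c to 0.25 for miR-196a. The fibrosis and matrix list had 10 tested members, 2 below (20%) and 3 above (30%). Besides miR-29 it held miR-199a-3p, of the mesenchymal Dnm3 antisense cluster, which read 549, 722 and 637 against 294, 345 and 297 (−1.02, adjusted p = 0.0667).

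Passenger strands had 19 tested members, 5 below (26.3%) and 2 above (10.5%), shares near the 23.2% and 8.61% of all tested miRNAs, with a median of 0.18. The largest positive difference of all tested miRNAs, 1.89, was that of miR-296*, at 1.05, 0.402 and 37.6 after denervation and 22.4, 30.6 and 20.5 after decompression (adjusted p = 0.342). let-7b* had the same shape, at 2.57, 2.06 and 84.0 against 16.4, 46.6 and 15.5 (1.42, adjusted p = 0.528). For both, denervation arrays 1 and 2 were at the floor and denervation array 3 was the highest of the 6. let-7d* read 19.5, 14.0 and 114 against 6.91, 61.1 and 6.19 (−1.19, adjusted p = 0.528).

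**Figure D5:**
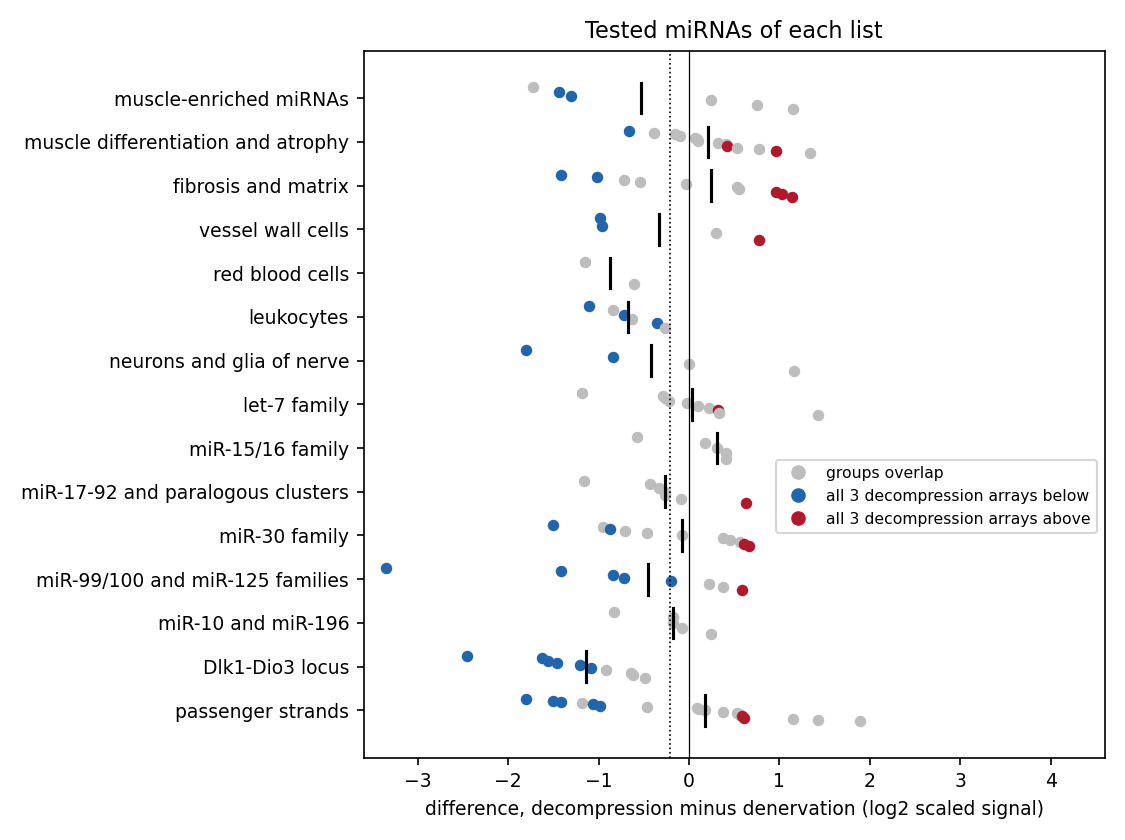
Log2 difference (decompression minus denervation, horizontal axis) of every tested miRNA in each list. Points are miRNAs, blue where all decompression arrays lie below all denervation arrays, red where all lie above and grey where they overlap. Black bars are list medians and the dotted line is the median of all tested miRNAs (−0.21). All tested leukocyte and Dlk1-Dio3 members lie below 0 with this scaling (3 of each not with every other), and miR-29a, miR-29b and miR-29c form the upper end of the fibrosis list.

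Base composition was described for the 125 of 151 tested miRNAs with a RefSeq sequence (82.8%). The median GC content was 45.5% over all, 47.8% for the 30 sequences among the 35 miRNAs below and 42.9% for the 13 above. The range of those below, 31.8% to 77.3%, covers that of those above, 33.3% to 50%.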

How the data were processed

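Soleus total RNA was run on Agilent single-colour miRNA arrays for rat. Labelling was by ligation of pCp-Cy3 per the methods, and by Cy3-CTP amplification per the labels. The authors deposited a background-subtracted total gene intensity per miRNA and array from Agilent Feature Extraction 9.5.3, with a detection call, and these intensities carry no normalization across arrays. A processed signal per miRNA was deposited as well, which equals this intensity divided by a constant per array except for 14 of 2088 values that differ by more than 1%. Its normalization could not be repeated from the methods. With 3 arrays a group, their number sets the precision.

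The 2 of 350 miRNAs named differently between files and all control features were left out. Intensities were scaled to the 75th percentile of the miRNAs detected on all 6 arrays, as the median array detected 141.5 miRNAs, under 50% of 348. Scaled signals under 2.71 were raised to that floor before taking log2. A miRNA was tested if 3 or more of the 6 arrays detected it, and the 151 such miRNAs were fitted with limma 3.58.1 in R 4.3.3 (lmFit and eBayes, 4 residual and 2.25 prior degrees of freedom), two-sided, with Benjamini-Hochberg adjustment at 0.05. For miRNAs not detected in a group a nominal lower bound of the fold is given. On simulated data for decompression against denervation with 151 miRNAs, 31 of 40 changes of log2 size 2 were recovered with 0 false calls. The simulated noise was normal and independent, without a floor, a background shift or deviations of a whole array. It therefore checks the fit, and does not give the power or the rate of false calls on these arrays. Python 3.11.15 with matplotlib 3.10.9 drew the figures.

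Named miRNAs are those past the threshold, those detected on 3 arrays of a group and 0 of the other, all muscle-enriched members and up to 3 members of each other list with the largest differences. Others were named after their values were seen. The arrays, lists and tests were chosen with earlier results of these data known. Strands of array names were matched to RefSeq by hand. No slide or scan is identified in the files used here, so neither could be tested as a batch, and the 10 ganglion arrays were not used.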

Additional observations from a re-analysis of the deposited data

How the results depend on the processing

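The counts of miRNAs past the threshold depended on the processing. Counts were 2 lower and 0 higher with no scaling and with median scaling, 4 and 7 with the percentile over all miRNAs, 0 and 0 with quantile scaling and with rank-consistent loess, 11 and 2 with no filter, 1 and 0 among miRNAs detected on all 6 arrays, 4 and 0 with a pseudocount of 1, 6 and 2 with an intensity trend, 12 and 2 with the 9 injury arrays in the fit, 22 and 2 with all 10 soleus arrays, and 3 and 0 with the processed values. Leaving out each array in turn gave 0 to 6 lower and 0 to 4 higher, with 0 and 0 without denervation array 2, decompression array 1 or decompression array 3, and 6 and 4 without denervation array 3. With denervation array 3 as the only denervation array, assumed to vary like the decompression group, 8 were lower and 0 higher. Chosen after seeing the data, a floor of 1 gave 5 and 0, and the unscaled processed values gave 0 and 0. Where no miRNA passed, the counts at an unadjusted p under 0.05 were 17 lower and 18 higher with quantile scaling and 13 lower and 14 higher with loess, against 27 and 8 in the main setting. The median difference was −0.36 with no scaling, −0.044 with median scaling, 0.28 with the percentile over all miRNAs, 0.12 with quantile scaling, 0.088 with loess, 0 with no filter, −0.15 on all 6 arrays, −0.27 with 10 arrays, −0.091 with denervation array 3 alone, −1.23 for the unscaled processed values, and −0.26 to −0.12 on leaving out an array. miR-139-3p stayed negative in 21 settings (past the threshold in 12), miR-760-5p in 21 (12) and miR-664 in 22 (11), with each past it in 2 of 6 fits that left out an array. Replicate numbers did not pair the arrays: the deviations of same-numbered arrays correlated at 0.22, −0.48 and −0.48. The replicate block gave 0 lower (21 at an unadjusted p under 0.05) and 0 higher.

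Of 1045 values of the 48 named miRNAs under 22 settings, 936 kept their direction and side of the threshold, 46 newly passed it, 29 no longer did and 34 changed sign, and the cause was not tested. miR-196b and miR-93 turned to 0.31 and 0.061 with the percentile over all miRNAs, 0.22 and 0.038 with quantile scaling and 0.11 and 0.18 with loess. miR-499 gave 2.66 with the processed values. On leaving out an array, miR-144 ranged from −1.51 to 0.075 (without denervation 2), miR-196a from −0.0095 (without denervation 3) to 0.43 and miR-206 from −0.14 (without decompression 2) to 1.43. With denervation array 3 alone the values were −0.12 for let-7b, −1.88 for let-7b*, −1.51 for miR-1*, 1.05 for miR-144, 0.47 for miR-146b, −0.073 for miR-195, −0.62 for miR-206, −0.64 for miR-296*, 0.65 for miR-451 and 0.066 for miR-93. The unscaled processed values gave −0.89 for let-7b, −0.59 for miR-106b, −0.98 for miR-133b, −0.45 for miR-143, −0.81 for miR-195, −0.98 for miR-196a, −0.48 for miR-206, −0.45 for miR-24, −0.26 for miR-27b, −0.20 for miR-29a, −0.084 for miR-29b, −0.81 for miR-322, −0.061 for miR-338 and 1.47 for miR-499. Detected miRNAs carried a median feature error of 7.52% to 8.51% per array.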

Other observations

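The 3 soleus arrays of rats with the tube in place for 6 months were set beside the 6 arrays on the same scale, as values only. miR-664 read 25.9, 20.4 and 30.4 there, and miR-760-5p was listed at −1.05, −1.68 and −4.22. miR-126* read 36.2, 59.2 and 58.4, miR-145 read 26.4, 32.2 and 33.8, and miR-487b read 12.7, 12.1 and 13.5. miR-139-3p read 20.8, 30.2 and 1.68, so that 1 entrapment array lay in the range of the denervation arrays and the other 2 lay below it. miR-136 of the Dlk1-Dio3 locus read 77.1, 38.0 and 36.1 there, against 46.0, 26.6 and 67.0 after denervation and 17.8, 20.1 and 24.03 after decompression.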
